A study of Homo sapiens with 12 samples.

Results

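The effect of the thyroid hormone triiodothyronine (T3) on transcript levels was compared between an early and a late stage of human hepatocyte differentiation. Cells of H9, an established embryonic stem cell line of human origin, had been taken toward hepatocytes from undifferentiated cells kept on vitronectin in mTeSR1 medium. Total RNA extracted with Trizol was sequenced from cells given 30 nM T3 at day 19, cells given 0.1% DMSO at day 19, cells given 30 nM T3 at day 7 and cells given 0.1% DMSO at day 7, with 2 libraries in each group. The labels call the cells hepatocytes at day 19 and hepatoblasts at day 7. These groups hold 8 of the 12 libraries of the series, and the other 4, from cells given 30 nM thyroxine (T4) at day 19 and at day 7, shared the fit and entered 1 comparison given last. The quantity of interest was the interaction contrast, the log2 fold change of T3 over DMSO at day 19 minus that at day 7, here called the stage difference. A positive stage difference means that the response to T3 was higher at day 19. Every library came from a single cell line. Whether a group's 2 libraries were separate cultures is not stated, and the p-values therefore reflect only variation between libraries, possibly technical in origin. The labels do not say when hormone was added, how long cells were exposed or which vehicle carried it, so the stage of the cells and the length of exposure cannot be told apart.

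T3 acts mainly through nuclear receptors encoded by THRA and THRB, which sit on DNA with a retinoid X receptor partner. Without hormone they favour repression of many target genes, and with it activation. T4 is largely a precursor, and deiodinase enzymes either convert it to T3 or inactivate both hormones. In liver, thyroid hormone is known for its control of cholesterol, fatty acid and glucose metabolism, and hepatocytes in culture acquire their secreted proteins late in differentiation.

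The libraries held 18363549 to 19306181 expected counts, and 18101 of 23922 genes passed the filter on low counts and were tested. Levels below are CPM (counts per 1e+06 counts), scaled for library composition, and values of different genes are not compared with each other. The 10 most abundant genes took 6.93% and 6.94% of the counts of the T3 libraries of day 19, 11.7% and 12.1% of the DMSO libraries of day 19, and 5.48% to 5.86% at day 7. Replicate libraries lay further apart at day 19, where the chi-square per gene was 8.624 with T3 and 7.061 with DMSO, than at day 7, where it was 2.10 with T3 and 1.584 with DMSO. The fit used 1 estimate of the spread for both days, which favours calls at day 19 and holds them back at day 7. Day 7 calls could therefore change when a day 19 library, no part of the day 7 contrast, was left out. AFP, the fetal counterpart of albumin and the usual hepatoblast marker, had 430.0 and 642 CPM with T3 and 32932 and 35469 CPM with DMSO at day 19 and 91.6 and 89.3 CPM with T3 and 136 and 131 CPM with DMSO at day 7. ALB, which encodes albumin, reached only 17.8 and 20.8 CPM in the DMSO libraries of day 19. LIN28A, an RNA-binding protein of pluripotent cells, still had 1147 and 1110.1 CPM with T3 and 1033 and 1046 CPM with DMSO at day 7, so the cells of day 7 kept a transcript of undifferentiated cells beside those of liver. Of 13 blood markers 5 were tested, HBG1 was not analysed here, and the others were too low to test. PTPRC, the pan-leukocyte marker, had at most 6 counts in a library. In bulk libraries fewer cells of a type and less RNA per cell cannot be told apart.

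The stage difference was called for 6874 genes (38.0% of those tested; edgeR's quasi-likelihood test, Benjamini-Hochberg adjusted p at most 0.05). Of these 3091 (17.1%) were higher and 3783 (20.9%) lower, and 2432 (13.4%) differed at least 2-fold. The median stage difference over all genes was -0.039. The share of calls that were higher, 45.0%, was 50.4% with DESeq2-type size factors, 50.6% with DESeq2 and 57.8% with limma on log2(FPKM + 0.1), so the balance of directions depends on the scaling. T3 changed 9473 genes at day 19 (52.3%; 4539 higher, 25.1%, and 4934 lower, 27.3%) and 2893 at day 7 (16.0%; 1710 higher, 9.45%, and 1183 lower, 6.54%). The day 7 count was 1325 and 1336 without a DMSO library of day 7, 1411 and 1477 without a T3 library of that day. With limma's voom and a weight per group it was 4914, against 7973 at day 19, so the gap between the days was narrower. The day 19 count was 7973 to 9535 over all settings. A change of at least 2-fold was called for 2988 genes at day 19 (16.5%) and 426 at day 7 (2.35%). The responses were also wider at day 19, with an SD of log2 fold changes across genes of 1.03 against 0.578 at day 7. The 2 T3 contrasts share no library. Of the genes called at day 7, 68.7% were also called at day 19, and of those called at day 19, 21.0% were also called at day 7. Across all tested genes, which are not independent replicates, Pearson's r between the responses of the 2 days was 0.126 and Spearman's rho 0.205.

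The genes fell into classes by how the responses of the 2 days were related. Percentages are of all 18101 genes tested. Called at both days were 1987 genes, of which 1462 (8.08%) had the same sign and 525 (2.90%) opposite signs, a response that turned round. Of those that turned round, 323 (1.78%) were higher with T3 at day 7 and lower at day 19, and 202 (1.12%) were lower at day 7 and higher at day 19. Without a single DMSO or T3 library of day 7 these counts were 152 to 177 and 78 to 95. At least a 2-fold change on both days was reached by 34 of the 323 and 16 of the 202. With limma's voom and a weight per group the 2 classes held 452 and 314 genes. The largest of the responding classes, 3640 genes (20.1%), responded at day 19 while the 95% interval of the day 7 effect lay within 0.5 of 0 on the log2 scale, 1810 upward and 1830 downward. That class held 2969 genes with voom and a weight per group. The opposite, a response at day 7 with a day 19 interval within 0.5 of 0, was found in 288 genes (1.59%), of which 184 (1.02%) rose and 104 (0.575%) fell, and 151 to 177 genes without 1 of the DMSO and T3 libraries of day 7. Another 637 genes (3.52%) moved the same way at both days but further at day 19, and 58 (0.320%) moved further at day 7. Cutting across these classes, 529 (2.92%) had responses of like size, with both called and the interval of the stage difference within 0.5 of 0. The 529 are counted a second time, either among those 637 and 58 or among the genes with no stage difference called. Of the 529, 340 rose (1.88%) and 189 fell (1.04%), and the class held 169 to 224 genes without 1 of those libraries. Another 1726 genes (9.54%) had a stage difference and met none of these patterns, and 11227 (62.0%) had none called.

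**Figure D1:**
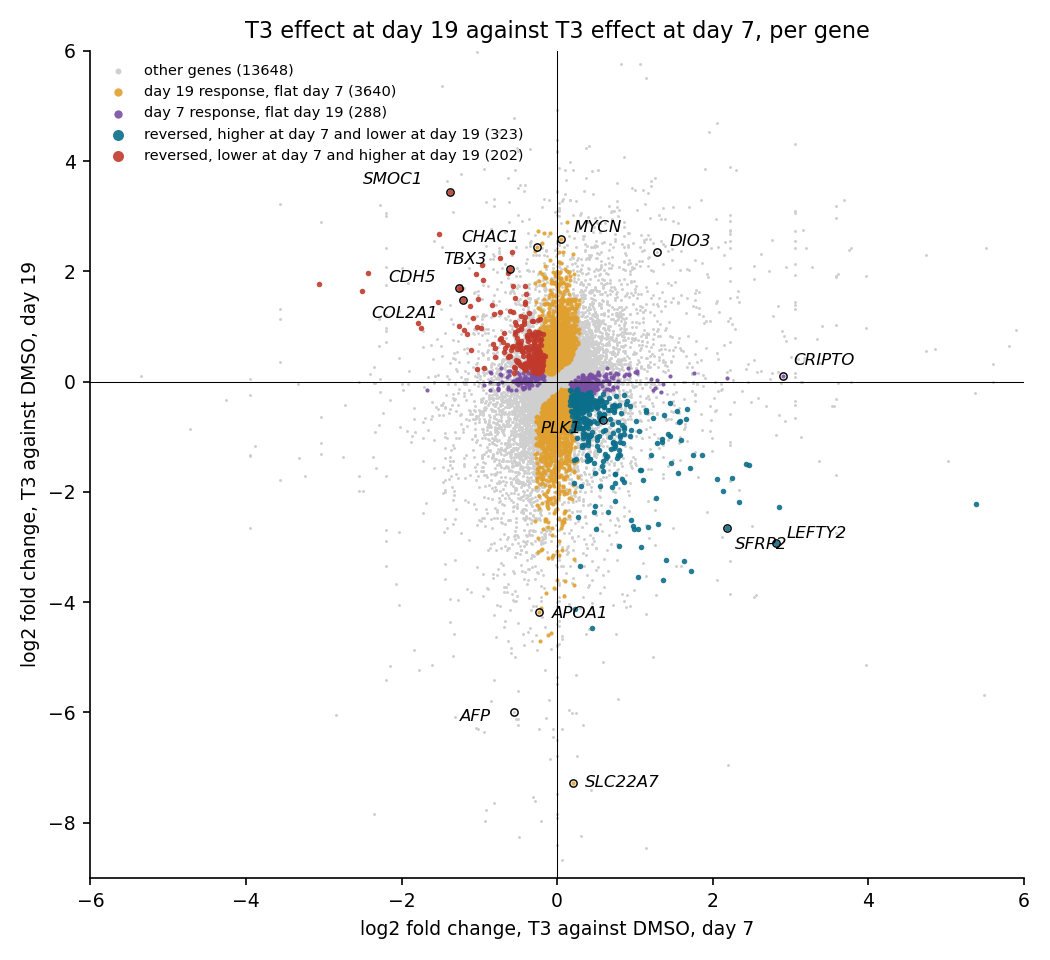
Log2 fold change of T3 over DMSO at day 19 (vertical axis) against that at day 7 (horizontal axis) for the tested genes, coloured by class, each point being 1 gene fitted on 2 libraries per group; 33 genes outside the axes are not drawn. The cloud is taller than it is wide, with an SD of 1.03 at day 19 and 0.578 at day 7. The 323 and 202 genes that turned round lie in the lower right and upper left quadrants, and 34 and 16 of them changed at least 2-fold on both days.

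Among genes that rose with T3 at day 7 and fell at day 19, SFRP2, which encodes a secreted frizzled-related protein that modulates WNT signals (Entrez gene 6423, GRCh38 chromosome 4, 153780591 to 153789083), had the widest change on the less responsive of its 2 days among the 8 the rule named. SFRP2 had 15.0 and 15.2 CPM with T3 and 99.2 and 91.1 CPM with DMSO at day 19, and 65.8 and 64.2 CPM with T3 and 14.9 and 13.8 CPM with DMSO at day 7. Both T3 libraries were below DMSO at day 19 and above it at day 7, with no overlap on either day. The log2 fold change was -2.65 (SE 0.073, adjusted p = 1.83e-12) at day 19 and 2.18 (SE 0.072, adjusted p = 1.65e-10) at day 7, a stage difference of -4.83 (SE 0.10, adjusted p = 1.32e-12).

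GRPR encodes the gastrin-releasing peptide receptor and HTR7 a serotonin receptor. GRPR had 1.56 and 1.40 CPM with T3 and 6.42 and 3.70 CPM with DMSO at day 19, and 8.38 and 8.61 CPM with T3 and 2.02 and 2.07 CPM with DMSO at day 7. HTR7 had 0.838 and 0.814 CPM with T3 and 3.03 and 1.64 CPM with DMSO at day 19, and 7.55 and 7.34 CPM with T3 and 1.64 and 1.11 CPM with DMSO at day 7. T3 libraries lay below DMSO at day 19 and above DMSO at day 7 for both. The stage difference was -3.83 (SE 0.40, adjusted p = 3.87e-06) for GRPR and -3.93 (SE 0.43, adjusted p = 5.69e-06) for HTR7, and without DMSO replicate 1 of day 19 the day 19 effect of HTR7 was -0.98 against -1.49 with all libraries. BRINP1, which encodes a neural protein that restrains the cell cycle when overexpressed, had log2 fold changes of -1.47 at day 19 and 1.46 at day 7 (stage difference -2.93, SE 0.30, adjusted p = 2.73e-06). CNTNAP3, a contactin-associated cell adhesion protein, had -1.33 at day 19 and 1.75 at day 7 (stage difference -3.08, SE 0.30, adjusted p = 1.77e-06). JPH4, a junctophilin, had -1.57 at day 19 and 1.71 at day 7 (stage difference -3.28, SE 0.51, adjusted p = 0.000149), on fewer than 2 CPM in every library of day 19. Its day 19 call was lost without T3 replicate 1 or DMSO replicate 1 of that day (adjusted p = 0.0687 to 0.139), and the effect was -3.08 without T3 replicate 2. The readthrough transcript ZNF664-RFLNA had -1.66 at day 19 and 1.55 at day 7 (stage difference -3.21, SE 0.49, adjusted p = 0.000119), and its day 7 call was lost without T3 replicate 1 or DMSO replicate 2 (adjusted p = 0.113 to 0.162).

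Of the 36 gene lists examined, that of mitosis held the most reversals. Of 25 measured genes, 22 had a lower stage difference and 1 a higher one, beside 20.9% and 17.1% of all genes. At day 19 21 fell and 1 rose, and at day 7 16 rose and 0 fell, so 13 turned round. Of all genes tested, 25.1% rose and 27.3% fell at day 19, and 9.45% rose and 6.54% fell at day 7. The counts of each list stand beside these shares. The day 7 count was 9 to 18 when 1 library was left out. The median log2 fold change of the list was -0.52 at day 19 and 0.26 at day 7, against -0.027 and 0.0078 over all genes tested. PLK1, the polo-like kinase that drives entry into and passage through mitosis (Entrez gene 5347, GRCh38 chromosome 16, 23678889 to 23690367), gave a clear example. PLK1 had 9.46 and 10.5 CPM with T3 and 16.5 and 16.0 CPM with DMSO at day 19, and 111 and 113 CPM with T3 and 74.1 and 74.6 CPM with DMSO at day 7. The 2 libraries of each group lay close together and the groups did not overlap on either day. For PLK1 the log2 fold change was -0.70 (SE 0.087, adjusted p = 7.65e-06) at day 19 and 0.60 (SE 0.055, adjusted p = 6.2e-06) at day 7, a stage difference of -1.30 (SE 0.10, adjusted p = 2.43e-07).

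CCNA2, which encodes cyclin A2, had -0.72 at day 19 and 0.41 at day 7 (stage difference -1.13, SE 0.094, adjusted p = 4.05e-07). UBE2C, a ubiquitin-conjugating enzyme of the anaphase-promoting complex, had -0.76 at day 19 and 0.37 at day 7 (stage difference -1.13, SE 0.14, adjusted p = 1.42e-05). Its day 7 call was lost without T3 replicate 2 or DMSO replicate 1 (adjusted p = 0.0596 to 0.0626). CDK1, the kinase that triggers mitosis, had -0.52 at day 19 and 0.33 at day 7 (stage difference -0.85, SE 0.10, adjusted p = 1.33e-05), and BUB1B, a spindle checkpoint kinase, had -0.35 at day 19 and 0.44 at day 7 (stage difference -0.79, SE 0.13, adjusted p = 0.000205). The day 19 call of BUB1B was lost without DMSO replicate 1 or T3 replicate 2 (adjusted p = 0.108 to 0.217). FOXM1, the transcription factor of the mitotic programme, had -0.25 at day 19 and 0.31 at day 7 (stage difference -0.56, SE 0.091, adjusted p = 0.000198), with its day 19 call lost without T3 replicate 2 (adjusted p = 0.0599). MKI67, the proliferation marker, had -0.54 at day 19 and 0.34 at day 7 (stage difference -0.88, SE 0.17, adjusted p = 0.001), but its day 7 call was lost without any 1 of the 4 DMSO and T3 libraries of that day (adjusted p = 0.11 to 0.231) and its day 19 call without DMSO replicate 1 (adjusted p = 0.0933).

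Some mitotic genes did not turn round. AURKB, the kinase of the chromosomal passenger complex, had -0.087 (SE 0.082) at day 19, where its 95% interval was -0.26 to 0.089, and rose by 0.57 (SE 0.056) at day 7. TOP2A, the topoisomerase that untangles replicated DNA, fell at day 19 (log2 fold change -0.77, SE 0.086) and had 0.20 (SE 0.072) at day 7 (adjusted p = 0.0795). That rise was called without either DMSO library of day 19 (adjusted p = 0.0101 and 0.0102) and with voom and a weight per group (0.00505). TOP2A would then count as a reversal. CCNB1, which encodes cyclin B1, was the exception in direction, with 50.4 and 41.0 CPM with T3 and 27.4 and 26.6 CPM with DMSO at day 19 and 149 and 148 CPM with T3 and 123 and 119 CPM with DMSO at day 7. T3 libraries were above DMSO on both days. Its log2 fold change was 0.76 (SE 0.085, adjusted p = 2.85e-06) at day 19 and 0.30 (SE 0.069, adjusted p = 0.00903) at day 7, a stage difference of 0.46 (SE 0.11, adjusted p = 0.00396), and the day 7 call was lost without any 1 of the 4 libraries of that day (adjusted p = 0.0551 to 0.0915). Without T3 replicate 1 of day 19 its stage difference was 0.30.

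Genes of DNA replication mostly rose at day 7, and few were called lower at day 19. The stage difference was lower for 8 and higher for 4, beside 20.9% and 17.1% of all genes, and 1 gene rose at day 7 and fell at day 19. Of 25 measured, 8 rose and 3 fell at day 19, while 18 rose and 0 fell at day 7, a count of rises that was 12 to 21 when 1 library was left out. MCM7, a subunit of the replicative helicase, rose by 0.94 at day 19 and 0.34 at day 7 (stage difference 0.60, SE 0.096, adjusted p = 0.000177). CDT1, which loads that helicase, had 0.13 at day 19 and 0.63 at day 7 (stage difference -0.51, SE 0.12, adjusted p = 0.00419). CCNE1, which encodes cyclin E1 of the entry into S phase, rose by 1.96 at day 19 and 0.40 at day 7 (stage difference 1.56, SE 0.14, adjusted p = 9.17e-07), though its day 7 call was lost without any 1 library of that day (adjusted p = 0.0641 to 0.114). MCM7 and CCNE1 were thus among the 4 with a higher stage difference. The medians of the list were 0.064 at day 19 and 0.36 at day 7, and the median stage difference was -0.35.

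Promoters of mitotic genes are known to carry the cell cycle genes homology region, the letters TTTGAA, bound by a complex that represses them in resting cells. The 250 bases upstream of the RefSeq start (build GRCh38.p14) were searched for these letters on both strands. They were found in 10 of 19 matched promoters of the mitosis list (52.6%), against 9.10% of the 13908 matched promoters of tested genes. In the reversal classes as a whole the shares were near that of tested genes. They were 10.8% for genes higher at day 7 and lower at day 19, and 12.8% for the opposite class. PLK1 and CDC20 are shown because their transcripts turned round, with the matches in capitals (TTTGAA, or TTCAAA where it lies on the other strand).
PLK1 (chr16:23678639-23678888, plus strand): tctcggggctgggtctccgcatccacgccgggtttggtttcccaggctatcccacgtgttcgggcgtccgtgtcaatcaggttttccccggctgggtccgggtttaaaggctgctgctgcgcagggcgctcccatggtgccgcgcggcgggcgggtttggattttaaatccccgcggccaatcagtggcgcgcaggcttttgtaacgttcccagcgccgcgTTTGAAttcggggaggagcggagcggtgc
CDC20 (chr1:43358731-43358980, plus strand): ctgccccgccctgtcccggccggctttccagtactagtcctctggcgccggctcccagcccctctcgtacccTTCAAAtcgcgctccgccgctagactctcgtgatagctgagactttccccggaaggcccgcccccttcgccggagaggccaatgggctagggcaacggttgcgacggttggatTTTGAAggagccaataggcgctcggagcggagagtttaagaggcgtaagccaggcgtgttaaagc
CDC20, the activator of the anaphase-promoting complex, holds 2 matches, at bases 73 and 186, and PLK1 holds 1, at base 222. CDC20 had -0.26 at day 19 and 0.43 at day 7 (stage difference -0.69, SE 0.11, adjusted p = 0.00014), and its day 19 call was lost without any 1 of the 4 DMSO and T3 libraries of that day (adjusted p = 0.0532 to 0.105). A match is a description of the letters and not of a bound site.

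**Figure D2:**
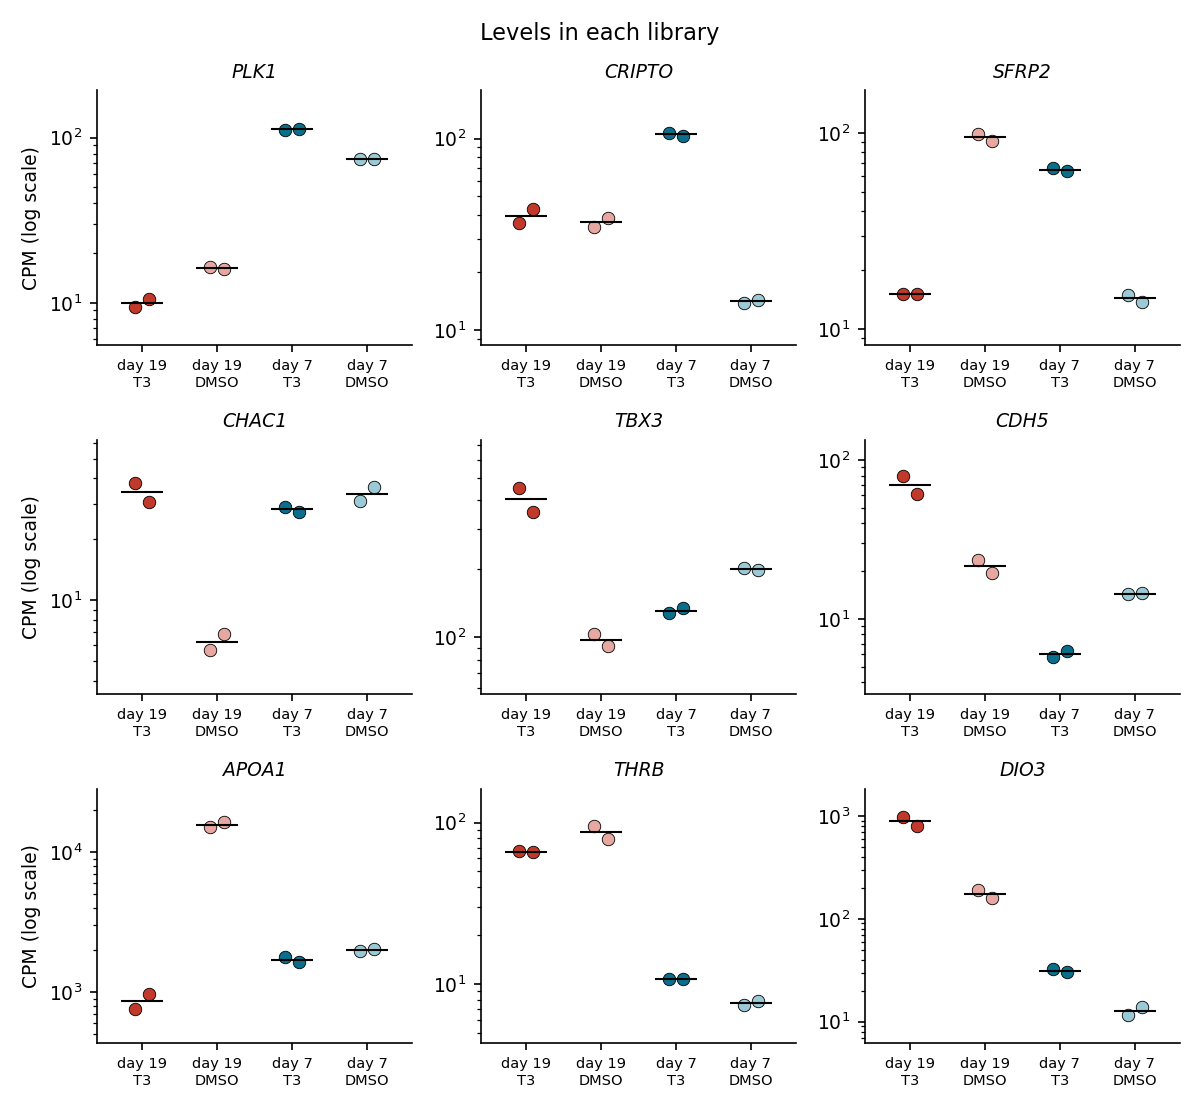
CPM in each of the 8 DMSO and T3 libraries (vertical axis, log scale) for 9 genes, with T3 left of DMSO within a day; each point is 1 library and each bar the mean of 2. PLK1 and SFRP2 lie above DMSO with T3 at day 7 and below it at day 19, TBX3 and CDH5 do the opposite, and CRIPTO separates at day 7 but not at day 19.

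Glycolysis held the other large block of reversals. Of 20 measured genes, 8 rose and 8 fell with T3 at day 19, while 16 rose and 1 fell at day 7. The stage difference was lower for 12 and higher for 4, beside 20.9% and 17.1% of all genes, and 7 rose at day 7 and fell at day 19. These were ALDOC, LDHA, PFKFB4, PGK1, ENO1, PGAM1 and GAPDH. LDHA, the lactate dehydrogenase subunit that makes lactate, had 166 and 175 CPM with T3 and 319 and 351 CPM with DMSO at day 19, and 1031 and 1074 CPM with T3 and 826 and 813 CPM with DMSO at day 7. T3 libraries were below DMSO at day 19 and above it at day 7 without overlap. Its log2 fold change was -0.98 (SE 0.062, adjusted p = 6.53e-09) at day 19 and 0.36 (SE 0.06, adjusted p = 0.000888) at day 7, a stage difference of -1.34 (SE 0.086, adjusted p = 3.3e-08). PGK1, the phosphoglycerate kinase, had -0.45 at day 19 and 0.53 at day 7 (stage difference -0.98, SE 0.081, adjusted p = 3.57e-07), ENO1, the enolase, had -0.51 at day 19 and 0.38 at day 7 (stage difference -0.89, SE 0.072, adjusted p = 3.36e-07), and GAPDH had -0.33 at day 19 and 0.33 at day 7 (stage difference -0.66, SE 0.08, adjusted p = 1.3e-05). ALDOC, the brain-type aldolase, fell furthest at day 19, with 28.9 and 37.0 CPM with T3 and 175 and 188 CPM with DMSO at day 19, but its day 7 call (0.27, SE 0.077) was lost without any 1 of the 4 libraries of that day (adjusted p = 0.104 to 0.176).

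The glucose transporters and the first enzymes of the pathway behaved otherwise. SLC2A3, the high-affinity glucose transporter GLUT3, was higher with T3 at day 19 (0.47, SE 0.048) and lower at day 7 (-0.15, SE 0.048), though the day 7 call was lost without any 1 library of that day (adjusted p = 0.17 to 0.202). SLC2A1, the transporter GLUT1, rose at both days, by 0.38 (SE 0.064) at day 19 and 0.61 (SE 0.065) at day 7, and its stage difference of -0.23 was not called (adjusted p = 0.0564). The call was gained without T3 replicate 1 of day 19 (-0.35). HK1, a hexokinase, rose by 1.08 at day 19 and 0.54 at day 7 (stage difference 0.54, SE 0.12, adjusted p = 0.00197) and PFKP, the platelet phosphofructokinase, by 0.93 at day 19 and 0.49 at day 7 (stage difference 0.44, SE 0.084, adjusted p = 0.000703). Of 16 hypoxia response genes, 5 had a higher and 8 a lower stage difference, beside 17.1% and 20.9% of all genes. HIF1A, the oxygen-regulated subunit of the hypoxia factor, had 0.89 at day 19 and -0.22 at day 7 (stage difference 1.11, SE 0.076, adjusted p = 6.21e-08). Its day 7 call was lost without T3 replicate 1 or either DMSO library of that day (adjusted p = 0.0783 to 0.142).

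Signalling genes of early development also turned round. Of 17 measured genes of the FGF pathway, 8 had a lower and 1 a higher stage difference, beside 20.9% and 17.1% of all genes, and 3 rose at day 7 and fell at day 19. FGF2, the basic fibroblast growth factor, had 14.8 and 17.2 CPM with T3 and 22.4 and 21.4 CPM with DMSO at day 19, and 27.2 and 27.6 CPM with T3 and 17.3 and 18.8 CPM with DMSO at day 7. Its T3 libraries were below both controls at day 19 and above both at day 7, and the log2 fold change was -0.45 (SE 0.095, adjusted p = 0.000944) at day 19 and 0.60 (SE 0.087, adjusted p = 0.000323) at day 7, a stage difference of -1.06 (SE 0.13, adjusted p = 1.54e-05). SPRY2, a feedback inhibitor of the pathway, had -0.73 at day 19 and 0.34 at day 7 (stage difference -1.08, SE 0.14, adjusted p = 2.76e-05), with the day 7 call lost without any 1 of the 4 libraries of that day (adjusted p = 0.0839 to 0.127). ETV5, a transcription factor induced by FGF signals, had -0.49 at day 19 and 1.67 at day 7 (stage difference -2.16, SE 0.28, adjusted p = 2.34e-05). Its day 19 call was lost without T3 replicate 1 or either DMSO library of that day (adjusted p = 0.0531 to 0.3), and without T3 replicate 2 its day 19 effect was -0.83.

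Genes of the NODAL and TGF-beta pathway moved in both directions. Of 20 measured genes 7 had a higher and 8 a lower stage difference. The ligand NODAL, which keeps mesendoderm competent, had -0.26 (SE 0.34) at day 19 and rose by 1.06 (SE 0.15) at day 7. Its stage difference of -1.32 (SE 0.37) lost its call without DMSO replicate 1 or either T3 library of day 19 (adjusted p = 0.0513 to 0.165). The NODAL inhibitors LEFTY1 and LEFTY2, themselves NODAL targets, were below 2 CPM in every library. LEFTY2 had 0.18 and 0.233 CPM with T3 and 1.27 and 1.94 CPM with DMSO at day 19, and 1.52 and 1.61 CPM with T3 and 0.337 and 0.0962 CPM with DMSO at day 7, so the T3 libraries were low at day 19 and high at day 7, a stage difference of -5.74 (SE 0.74, adjusted p = 2.58e-05). The TGF-beta receptor genes had positive stage differences. TGFBR1, the type I receptor, had 0.64 at day 19 and -0.24 at day 7 (stage difference 0.89, SE 0.10, adjusted p = 8.99e-06), and TGFBR3, the co-receptor betaglycan, had 0.27 at day 19 and -0.43 at day 7 (stage difference 0.71, SE 0.15, adjusted p = 0.00156). The day 7 calls of both were lost without any 1 library of that day (adjusted p = 0.104 to 0.206 and 0.0736 to 0.115), as was the day 19 call of TGFBR3 without T3 replicate 1 or DMSO replicate 2 (adjusted p = 0.189 to 0.322). The effect of TGFBR3 at day 19 was 0.45 without DMSO replicate 1. TGFB2, a TGF-beta ligand, had 0.80 at day 19 and -0.72 at day 7 (stage difference 1.52, SE 0.19, adjusted p = 1.68e-05), with the day 7 call lost without replicate 1 of T3 or DMSO (adjusted p = 0.087 to 0.0918). TGFBR2, the type II receptor, rose at day 19 by 1.40 (SE 0.11) and had -0.52 (SE 0.18) at day 7 (adjusted p = 0.0603). That fall was called with DESeq2 (adjusted p = 0.0205), with voom and a weight per group (0.0249), with limma on log2(FPKM + 0.1) (0.0307) and without any 1 of the 4 DMSO and T3 libraries of day 19 (0.0288 to 0.0353). TGFBR2 would then count as a reversal.

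Among genes that fell with T3 at day 7 and rose at day 19, TBX3, a T-box factor of hepatoblasts (Entrez gene 6926, GRCh38 chromosome 12, 114670255 to 114684175), was the 1 hepatic transcription factor of its list that turned round. TBX3 had 454 and 355 CPM with T3 and 103 and 92.0 CPM with DMSO at day 19, and 128 and 134 CPM with T3 and 201 and 198 CPM with DMSO at day 7. All T3 libraries of day 19 were far above their controls and those of day 7 below theirs. For TBX3 the log2 fold change was 2.05 (SE 0.095, adjusted p = 2.36e-10) at day 19 and -0.61 (SE 0.092, adjusted p = 0.000469) at day 7, a stage difference of 2.66 (SE 0.13, adjusted p = 3.32e-09). CDH5, the endothelial cadherin (Entrez gene 1003, GRCh38 chromosome 16, 66366691 to 66404784), also fell at day 7 and rose at day 19. CDH5 had 78.9 and 61.2 CPM with T3 and 23.6 and 19.6 CPM with DMSO at day 19, and 5.78 and 6.31 CPM with T3 and 14.3 and 14.6 CPM with DMSO at day 7, again without overlap. Its log2 fold change was 1.69 (SE 0.12, adjusted p = 1.98e-08) at day 19 and -1.26 (SE 0.16, adjusted p = 0.000108) at day 7, a stage difference of 2.95 (SE 0.20, adjusted p = 5.26e-08). Of 12 endothelial markers measured, 2 had a higher and 2 a lower stage difference, a share near the 38.0% of all genes, 2 rose and 6 fell at day 19, and 1 rose and 7 fell at day 7. The summed level of the list was 674 and 655 CPM with T3 and 254 and 246 CPM with DMSO at day 19, and 82.6 and 85.8 CPM with T3 and 121 and 121 CPM with DMSO at day 7. ENG, the endoglin co-receptor of TGF-beta and BMP ligands, had 502 and 476 CPM with T3 and 69.2 and 70.5 CPM with DMSO at day 19 and rose there by 2.81 (SE 0.063). The part of endothelial cells in the CDH5 result was not tested.

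COL2A1, the cartilage collagen also made by early epithelia, had 1640.1 and 2176 CPM with T3 and 696 and 666 CPM with DMSO at day 19, and 56.1 and 54.2 CPM with T3 and 125 and 131 CPM with DMSO at day 7. T3 libraries were high at day 19 and low at day 7, and the log2 fold change was 1.49 (SE 0.093, adjusted p = 5.79e-09) at day 19 and -1.21 (SE 0.10, adjusted p = 2.45e-06) at day 7, a stage difference of 2.70 (SE 0.14, adjusted p = 4.3e-09). SMOC1, a secreted modulator of BMP signals, rose at day 19 to 164 and 141 CPM with T3, against 13.3 and 14.9 CPM with DMSO. At day 7 it had 0.588 and 0.978 CPM with T3 and 2.07 and 2.02 CPM with DMSO. For SMOC1 the stage difference was 4.81 (SE 0.30, adjusted p = 2.5e-08), and its day 7 call was lost without T3 replicate 1 (adjusted p = 0.0631). CRH, the corticotropin-releasing hormone, had 1.68 at day 19 and -1.24 at day 7 (stage difference 2.92, SE 0.25, adjusted p = 6.13e-07). HOTAIRM1, a long noncoding RNA of the HOXA cluster, had 1.44 at day 19 and -1.53 at day 7 (stage difference 2.98, SE 0.37, adjusted p = 1.88e-05). GREM1, a BMP antagonist, had 0.98 at day 19 and -1.75 at day 7 (stage difference 2.73, SE 0.29, adjusted p = 4.76e-06).

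For 3 further genes the fall at day 7 rested on few reads. SLC34A2, a sodium-phosphate cotransporter, had 16.4 and 24.6 CPM with T3 and 3.27 and 3.16 CPM with DMSO at day 19 and 0.392 and 0.391 CPM with T3 and 1.06 and 1.202 CPM with DMSO at day 7. The groups did not overlap, but the day 7 call was lost without any 1 library of that day (adjusted p = 0.08 to 0.13). LURAP1L had 1.15 at day 19 and -1.08 at day 7 (stage difference 2.23, SE 0.33, adjusted p = 0.000102), with the day 7 call lost without replicate 2 of T3 or DMSO (adjusted p = 0.196 to 0.216). CGB8, one of the near-identical genes of the chorionic gonadotropin beta subunit whose reads cannot be assigned with certainty, had 220.5 and 201 CPM with T3 and 51.1 and 56.5 CPM with DMSO at day 19 and 0.294 and 0 CPM with T3 and 0.867 and 0.77 CPM with DMSO at day 7. For CGB8 the stage difference was 4.39 (SE 0.75, adjusted p = 0.0003), its day 7 call was lost without T3 replicate 2 or either DMSO library (adjusted p = 0.128 to 0.26), and without T3 replicate 1 of day 7, which leaves a library at 0, the stage difference was 8.91.

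The secreted proteins of the liver were lowered by T3 at day 19, with fewer and smaller falls at day 7. Of 29 measured genes 28 had a lower stage difference and 0 a higher one. All 29 fell at day 19, whereas 10 fell and 2 rose at day 7, and that count of falls was 5 to 13 when 1 library was left out. The median log2 fold change was -3.71 at day 19 and -0.31 at day 7. A mean below 1 CPM in both groups of day 7 was found for 4 of the 29. APOA1, the main protein of high-density lipoprotein (Entrez gene 335, GRCh38 chromosome 11, 116835751 to 116837622), was 1 of the 6 genes with the steepest fall among those flat at day 7. APOA1 had 760.2 and 975 CPM with T3 and 15074 and 16375 CPM with DMSO at day 19, and 1775 and 1646 CPM with T3 and 1981 and 2040.4 CPM with DMSO at day 7. At day 19 the T3 libraries were far below DMSO, and also below every library of day 7. The log2 fold change was -4.18 (SE 0.10, adjusted p = 6.51e-13) at day 19 and -0.23 (SE 0.088, adjusted p = 0.0918) at day 7, a stage difference of -3.95 (SE 0.13, adjusted p = 7e-11). The day 7 fall of APOA1 was called with DESeq2 (adjusted p = 0.0443), with voom and a weight per group (0.00581) and without either T3 library of day 19. PLG, which encodes plasminogen, had 1.14 and 2.04 CPM with T3 and 467 and 508 CPM with DMSO at day 19 and 2.30 and 1.96 CPM with T3 and 2.94 and 3.03 CPM with DMSO at day 7, with a stage difference of -7.77 (SE 0.31, adjusted p = 3.87e-10). SERPINA7, which encodes the thyroxine-binding globulin of plasma, had no count in either T3 library of day 19 and 61.5 and 64.6 CPM with DMSO, at least 712.6-fold lower against a floor of 3 counts over the group. FETUB was likewise at 0 with T3 at day 19 and at least 26.4-fold lower.

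AFP, ALB and TTR shared the direction of APOA1. AFP had a log2 fold change of -5.996 at day 19 and -0.56 at day 7 (stage difference -5.44, SE 0.20, adjusted p = 1.91e-10), and its day 7 call was lost without any 1 library of that day (adjusted p = 0.0607 to 0.0909). TTR, the transthyretin that carries thyroid hormone in plasma, had -3.40 at day 19 and -0.76 at day 7 (stage difference -2.64, SE 0.16, adjusted p = 2.55e-08). ALB had -3.95 at day 19 and -0.57 at day 7 (stage difference -3.38, SE 0.42, adjusted p = 2.01e-05), with no call at day 7 (adjusted p = 0.269). C3, the central complement component, was 1 of 2 members that turned round, with 11.3 and 10.3 CPM with T3 and 68.9 and 64.9 CPM with DMSO at day 19 and 3.38 and 3.86 CPM with T3 and 1.54 and 1.68 CPM with DMSO at day 7. Its T3 libraries were low at day 19 and high at day 7, and the log2 fold change was -2.63 (SE 0.094, adjusted p = 1.7e-11) at day 19 and 1.17 (SE 0.17, adjusted p = 0.000351) at day 7, a stage difference of -3.80 (SE 0.19, adjusted p = 4e-09). FGA, the fibrinogen alpha chain, was the 1 member whose stage difference was not called, at -0.25 (SE 0.14, adjusted p = 0.203). The 2 T3 libraries of day 19 were apart, at 1608 and 2223 CPM, and the stage difference was called without T3 replicate 2 (-0.50, adjusted p = 8.4e-05).

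**Figure D3:**
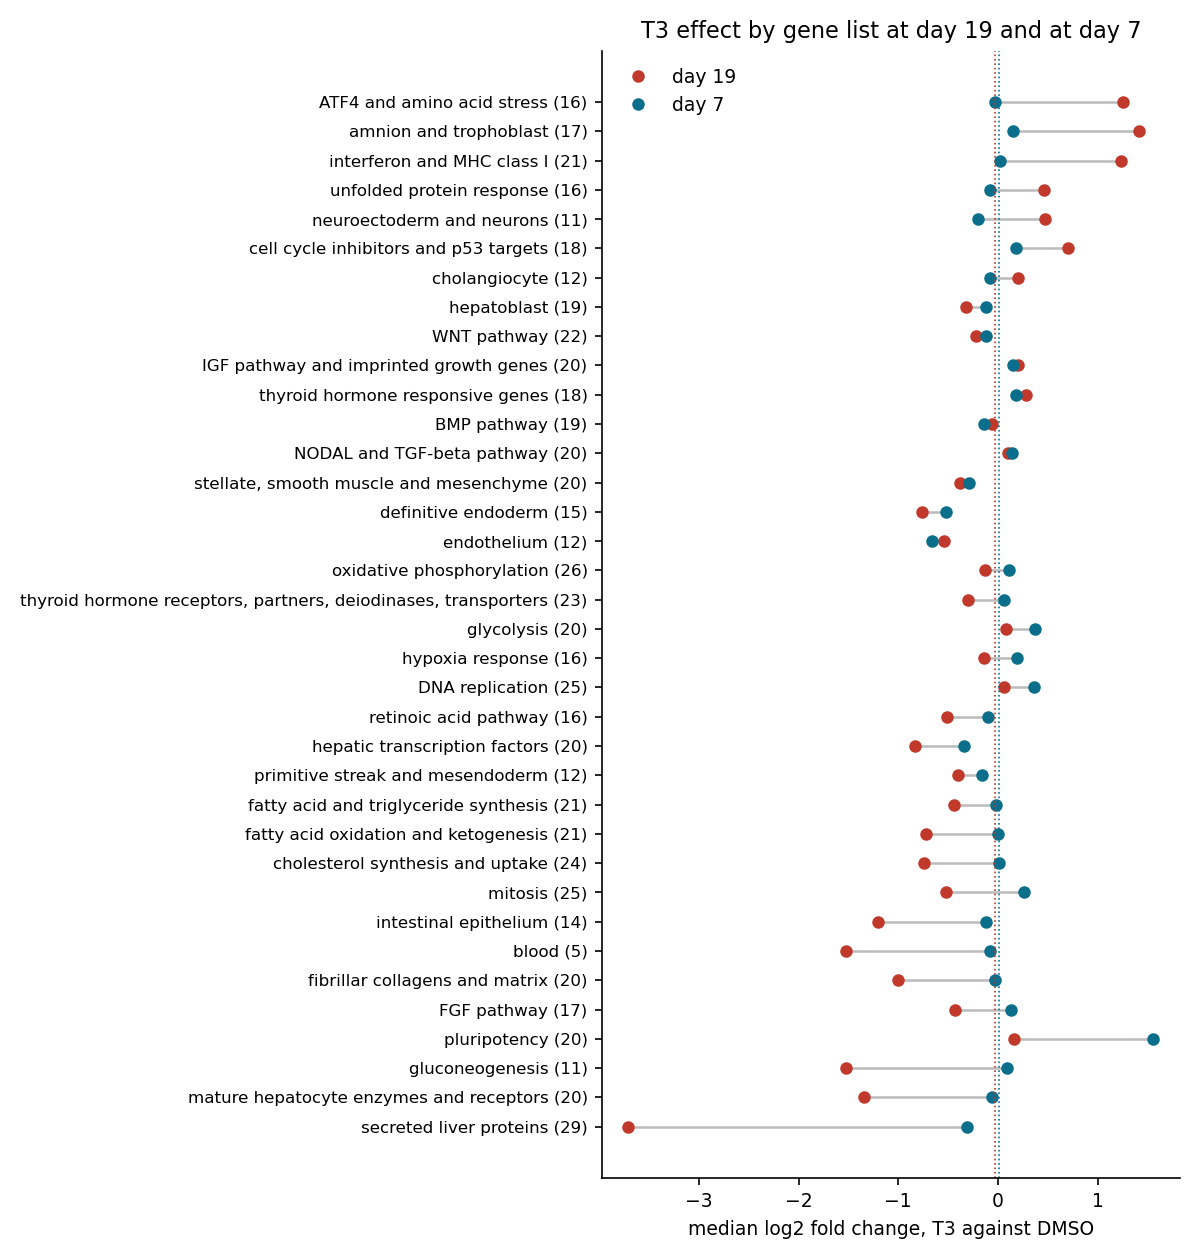
Median log2 fold change of T3 over DMSO at day 19 and at day 7 for each gene list (horizontal axis), with the lists down the page, the number of measured genes in brackets and dotted lines at the medians of all genes tested. The secreted liver proteins are lowest at day 19, with a median of -3.71 against -0.31 at day 7, and pluripotency genes highest at day 7, with 1.56 against 0.16 at day 19.

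The genes with the steepest fall at day 19 and a flat day 7 included a transporter and enzymes of the hepatocyte. SLC22A7, an organic anion transporter of the basolateral membrane, led them. SLC22A7 had 1.08 and 1.05 CPM with T3 and 164 and 167 CPM with DMSO at day 19, and 8.77 and 8.85 CPM with T3 and 8.28 and 7.07 CPM with DMSO at day 7. The T3 libraries of day 19 were far below all others, including those of day 7, where T3 and DMSO differed by 0.20 on the log2 scale (95% interval -0.016 to 0.41). Its stage difference was -7.47 (SE 0.17, adjusted p = 1.32e-12). DGAT2, the enzyme of the last step of triglyceride synthesis, had 13.2 and 18.7 CPM with T3 and 419 and 417 CPM with DMSO at day 19 and 26.7 and 25.2 CPM with T3 and 30.8 and 29.9 CPM with DMSO at day 7, a stage difference of -4.49 (SE 0.16). Its day 7 fall was called with voom and a weight per group (adjusted p = 0.0443). CPS1, the first enzyme of the urea cycle, had 12.6 and 18.6 CPM with T3 and 272 and 269.6 CPM with DMSO at day 19 and 20.3 and 23.1 CPM with T3 and 24.4 and 25.5 CPM with DMSO at day 7, a stage difference of -3.91 (SE 0.18). FMO1, a flavin monooxygenase of fetal liver, had -4.56 at day 19 and -0.073 at day 7 (stage difference -4.49, SE 0.29, adjusted p = 3.27e-08), and EPHA8, an ephrin receptor, had -4.59 at day 19 and -0.12 at day 7 (stage difference -4.47, SE 0.25, adjusted p = 1.01e-08). Of 20 measured enzymes and receptors of mature hepatocytes, 7 had a mean below 1 CPM in both groups of day 7, where a response could hardly be seen. Of the 20, 12 had a lower and 1 a higher stage difference, 13 fell and 3 rose at day 19, and 0 were called at day 7 by edgeR. There 4 had an unadjusted p under 0.05, DESeq2 called 1, and leaving out either T3 library of day 19 gave 3.

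Most genes of cholesterol synthesis fell at day 19. Of 24 genes of cholesterol synthesis and uptake, 19 had a lower and 0 a higher stage difference, 20 fell at day 19 and none rose, and at day 7 1 rose and 1 fell. MSMO1, the sterol C4 methyl oxidase, had 182 and 215 CPM with T3 and 923 and 1027 CPM with DMSO at day 19 and 126 and 132 CPM with T3 and 136 and 143 CPM with DMSO at day 7. The T3 libraries of day 19 were below DMSO without overlap while those of day 7 lay within 0.2 of DMSO on the log2 scale, and the stage difference was -2.18 (SE 0.11, adjusted p = 3.68e-09). CYP51A1, the lanosterol demethylase, had -1.59 at day 19 and -0.024 at day 7 (stage difference -1.57, SE 0.13, adjusted p = 3.15e-07).

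Of 11 genes of gluconeogenesis 8 had a lower stage difference and 0 a higher one, with 9 lower and 2 higher at day 19. For 3 of the 11 the mean was below 1 CPM in both groups of day 7. FBP1, the fructose bisphosphatase, had 6.47 and 8.38 CPM with T3 and 119 and 138 CPM with DMSO at day 19, a stage difference of -4.41 (SE 0.29, adjusted p = 4.25e-08). PCK1, the cytosolic enzyme that commits to the pathway, had 152 and 205 CPM with T3 and 519.8 and 508 CPM with DMSO at day 19 but under 1 CPM in each library of day 7. Its stage difference of -2.48 (SE 0.67) lost its call without T3 replicate 2 of day 7 (adjusted p = 0.0845). Of 21 genes of fatty acid oxidation 13 had a lower stage difference and 0 a higher one. HADH, the hydroxyacyl dehydrogenase, had -1.70 at day 19 and 0.053 at day 7 (stage difference -1.75, SE 0.11, adjusted p = 2.55e-08). CPT1A, which admits fatty acids to mitochondria and is a known target of thyroid hormone in liver, rose at both days instead. CPT1A had 92.1 and 99.4 CPM with T3 and 60.9 and 56.8 CPM with DMSO at day 19, and 12.1 and 12.6 CPM with T3 and 7.27 and 8.56 CPM with DMSO at day 7. T3 libraries were above DMSO on both days, and the stage difference was 0.059 (SE 0.15) with a 95% interval of -0.26 to 0.38. The day 7 call was lost without DMSO replicate 1 (adjusted p = 0.0506). Of 26 genes of oxidative phosphorylation 14 had a lower stage difference and 0 a higher one, a count that was 7 to 17 when 1 library was left out and 6 to 14 under other settings.

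Most stress genes rose with T3 at day 19. All 16 of 16 measured genes of ATF4 and amino acid stress rose at day 19, against 1 higher and 2 lower at day 7, where 16.0% of all genes were called, and 15 had a higher stage difference. The median was 1.26 at day 19 and -0.027 at day 7. CHAC1, a glutathione-degrading enzyme induced by ATF4, had the widest stage difference of the list. CHAC1 had 37.8 and 30.5 CPM with T3 and 5.69 and 6.80 CPM with DMSO at day 19, and 28.8 and 27.4 CPM with T3 and 31.0 and 36.4 CPM with DMSO at day 7. T3 libraries were far above DMSO at day 19, while at day 7 they lay slightly below. The log2 fold change was 2.45 (SE 0.14, adjusted p = 1.79e-09) at day 19 and -0.26 (SE 0.11, adjusted p = 0.115) at day 7, a stage difference of 2.71 (SE 0.18, adjusted p = 3.56e-08). With voom and a weight per group the day 7 fall of CHAC1 was called (adjusted p = 0.0336). ATF4, the transcription factor of the response, had 1.05 at day 19 and -0.018 at day 7 (stage difference 1.07, SE 0.081, adjusted p = 1.58e-07). DDIT3, the stress factor CHOP, had 1.89 at day 19 and -0.17 at day 7 (stage difference 2.06, SE 0.15, adjusted p = 1.37e-07), and ASNS, the asparagine synthetase, had 1.33 at day 19 and 0.076 at day 7 (stage difference 1.25, SE 0.11, adjusted p = 7.37e-07). SLC7A11, the cystine transporter, turned round, with 19.4 and 20.7 CPM with T3 and 13.8 and 13.3 CPM with DMSO at day 19, and 21.9 and 21.1 CPM with T3 and 32.2 and 32.8 CPM with DMSO at day 7. Its T3 libraries were above DMSO at day 19 and below it at day 7, and the log2 fold change was 0.57 (SE 0.08, adjusted p = 3.03e-05) at day 19 and -0.60 (SE 0.069, adjusted p = 4.28e-05) at day 7, a stage difference of 1.16 (SE 0.11, adjusted p = 9.19e-07). PPP1R15A, which restores translation after stress, also turned round, with 1.10 at day 19 and -0.33 at day 7 (stage difference 1.43, SE 0.082, adjusted p = 1.14e-08).

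Of 16 genes of the unfolded protein response 13 had a higher stage difference and 0 a lower one, 13 rose at day 19 and 3 fell at day 7. HERPUD1, a factor of endoplasmic reticulum degradation, had 1.85 at day 19 and 0.17 at day 7 (stage difference 1.68, SE 0.086, adjusted p = 4.12e-09), and XBP1, a transcription factor of the response, had 0.84 at day 19 and -0.11 at day 7 (stage difference 0.95, SE 0.084, adjusted p = 6.73e-07). HSPA5, the main chaperone of the endoplasmic reticulum (Entrez gene 3309, GRCh38 chromosome 9, 125234853 to 125241343), had 1309 and 1133 CPM with T3 and 647 and 656 CPM with DMSO at day 19 and 569 and 559 CPM with T3 and 663 and 668 CPM with DMSO at day 7. T3 libraries were above DMSO at day 19 and below it at day 7 without overlap. Its log2 fold change was 0.91 (SE 0.062, adjusted p = 1.41e-08) at day 19 and -0.24 (SE 0.062, adjusted p = 0.0168) at day 7, a stage difference of 1.15 (SE 0.087, adjusted p = 1.7e-07). CALR, the calcium-binding chaperone calreticulin, had 0.43 at day 19 and -0.19 at day 7 (stage difference 0.62, SE 0.065, adjusted p = 3.77e-06), and DNAJC3, an inhibitor of the kinase PERK, had 0.21 at day 19 and -0.25 at day 7 (stage difference 0.46, SE 0.087, adjusted p = 0.000759). The day 7 calls of HSPA5 and CALR were lost without any 1 of the 4 libraries of that day (adjusted p = 0.0834 to 0.116 and 0.0707 to 0.133). That of DNAJC3 was lost without DMSO replicate 2 or either T3 library (adjusted p = 0.0748 to 0.183), and its day 19 call without DMSO replicate 2 (adjusted p = 0.0534). The list count at day 7 was therefore 0 to 3 when 1 library was left out.

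Promoters of these lists are shown because their members moved together at day 19. The endoplasmic reticulum stress element, CCAAT followed 9 bases later by CCACG, was found in 6 of 15 matched promoters of the unfolded protein response (40.0%), against 0.108% of promoters of tested genes. The ATF4-type element, TGATGNAA, was found in 3 of 14 promoters of the ATF4 list (21.4%), against 1.54%. Both were searched on both strands of the same 250 bases, the stretches are RefSeq sequence of build GRCh38.p14, and capitals mark the matches.
HSPA5 (chr9:125241344-125241593, minus strand): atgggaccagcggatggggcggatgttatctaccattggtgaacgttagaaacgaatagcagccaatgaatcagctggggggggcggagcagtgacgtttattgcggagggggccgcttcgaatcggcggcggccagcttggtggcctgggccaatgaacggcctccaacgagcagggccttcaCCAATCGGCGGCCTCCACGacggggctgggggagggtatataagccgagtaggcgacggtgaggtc
XBP1 (chr22:28800570-28800819, minus strand): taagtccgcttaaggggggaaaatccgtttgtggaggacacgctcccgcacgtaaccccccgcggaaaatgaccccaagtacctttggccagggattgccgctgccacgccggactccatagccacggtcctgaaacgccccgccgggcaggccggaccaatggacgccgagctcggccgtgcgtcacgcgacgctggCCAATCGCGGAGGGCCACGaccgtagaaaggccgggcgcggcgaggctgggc
CHAC1 (chr15:40953221-40953470, plus strand): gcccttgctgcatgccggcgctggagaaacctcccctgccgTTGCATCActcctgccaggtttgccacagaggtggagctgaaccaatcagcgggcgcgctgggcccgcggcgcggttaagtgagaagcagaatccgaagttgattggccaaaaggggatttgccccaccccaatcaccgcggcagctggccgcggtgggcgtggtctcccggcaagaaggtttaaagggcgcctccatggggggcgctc
ATF3 (chr1:212565157-212565406, plus strand): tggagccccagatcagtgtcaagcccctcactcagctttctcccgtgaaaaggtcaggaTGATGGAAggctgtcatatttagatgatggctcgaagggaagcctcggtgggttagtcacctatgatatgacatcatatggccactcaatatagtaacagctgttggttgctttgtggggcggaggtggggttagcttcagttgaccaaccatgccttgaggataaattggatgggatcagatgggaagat
The match lies at base 185 in HSPA5, base 199 in XBP1, base 42 in CHAC1, on the other strand, and base 60 in ATF3. ATF3, a stress-induced transcription factor, had 1.41 at day 19 and -0.11 at day 7 (stage difference 1.52, SE 0.14, adjusted p = 9.92e-07). AGGTCA, the half-site that thyroid hormone receptors bind in pairs, was in 7.63% of promoters of genes higher at day 7 and lower at day 19, 5.77% of those lower at day 7 and higher at day 19, and 9.28% of all tested promoters. A direct repeat of it with 4 bases between the copies was in 0 of the 13908, which says only that these letters are not in this window.

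The rule also named the 6 genes with the steepest rise at day 19 and a flat day 7. MYCN, a MYC family transcription factor of progenitor cells, had 127 and 109 CPM with T3 and 19.1 and 19.979 CPM with DMSO at day 19 and 78.2 and 78.2 CPM with T3 and 72.0 and 78.8 CPM with DMSO at day 7. T3 libraries were far above DMSO at day 19, where DMSO was low, and overlapped DMSO at day 7. For MYCN the stage difference was 2.54 (SE 0.12, adjusted p = 1.74e-09). IFRD1, an interferon-related developmental regulator, had 2.52 at day 19 and -0.19 at day 7 (stage difference 2.71, SE 0.12, adjusted p = 1.62e-09). Its day 7 fall was called with voom and a weight per group (adjusted p = 0.0483) and without either T3 library of day 19. COL22A1, a collagen of tissue junctions, had 2.69 at day 19 and -0.17 at day 7 (stage difference 2.85, SE 0.19, adjusted p = 4.83e-08). FHDC1, a formin of cilia and microtubules, had 2.70 at day 19 and -0.087 at day 7 (stage difference 2.79, SE 0.25, adjusted p = 8.08e-07), UBXN10, a ciliary adaptor, had 2.90 at day 19 and 0.13 at day 7 (stage difference 2.77, SE 0.25, adjusted p = 7.95e-07), and GATA3-AS1, a noncoding RNA divergent from GATA3, had 2.73 at day 19 and -0.25 at day 7 (stage difference 2.98, SE 0.17, adjusted p = 8.69e-09). The day 7 fall of GATA3-AS1 was called with voom and a weight per group (adjusted p = 0.0445).

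GATA3 itself stands in the list of amnion and trophoblast genes. Of 17 measured, 11 had a higher stage difference and 3 a lower one, 12 rose and 3 fell at day 19, and 6 rose and 1 fell at day 7. The higher count was 8 to 11 when 1 library was left out. GATA3 had 1055 and 863 CPM with T3 and 262 and 226 CPM with DMSO at day 19 and 181 and 173 CPM with T3 and 181 and 171 CPM with DMSO at day 7. The T3 libraries of day 19 were far above the rest, with a stage difference of 1.97 (SE 0.12, adjusted p = 2.43e-08). GATA2 had 2.89 at day 19 and 0.37 at day 7 (stage difference 2.51, SE 0.18, adjusted p = 1.1e-07). Its day 7 effect was called without either T3 library of day 19 (adjusted p = 0.0142). TFAP2C, a partner of both in trophoblast, had 2.46 at day 19 and 0.38 at day 7 (stage difference 2.08, SE 0.15, adjusted p = 8.53e-08). The day 7 call of TFAP2C was lost without any 1 library of that day (adjusted p = 0.0883 to 0.121). The 3 members that went the other way were GABRP, a GABA receptor subunit, VTCN1, an immune checkpoint protein, and HAND1, a transcription factor, with stage differences of -1.07 (SE 0.098), -1.40 (SE 0.082) and -1.41 (SE 0.15). The summed level of the list at day 19 was 7177 and 6457 CPM with T3 and 3151 and 2988 CPM with DMSO, and the part of such cells in the results of day 19 was not tested. KRT8 and KRT18, the keratin pair of simple epithelia, rose at day 19 by 1.25 (SE 0.062) and 1.59 (SE 0.067), and had -0.12 (SE 0.061) and -0.095 (SE 0.066) at day 7.

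Most matrix genes fell at day 19. Of 20 fibrillar collagen and matrix genes 13 had a lower and 3 a higher stage difference, with 16 lower and 3 higher at day 19 and 3 lower and 1 higher at day 7, where 6.54% and 9.45% of all genes were called. COL1A1, the main fibrillar collagen, had 536 and 651 CPM with T3 and 2443 and 2339.8 CPM with DMSO at day 19 and 131 and 129 CPM with T3 and 109 and 112 CPM with DMSO at day 7. T3 libraries were below DMSO at day 19 without overlap, and the stage difference was -2.24 (SE 0.11, adjusted p = 2.46e-09). The day 7 effect of 0.23 (adjusted p = 0.0595) was called with DESeq2 (adjusted p = 0.0328) and with voom and a weight per group (0.00711). It was also called without either T3 library of day 19. COL1A1 would then count as a reversal. TIMP3, a metalloproteinase inhibitor, BGN, a proteoglycan, and FBN1, the fibrillin, were the members with a higher stage difference, at 2.81 (SE 0.14), 2.31 (SE 0.23) and 1.21 (SE 0.19). The day 7 fall of TIMP3 missed its call. It was called with DESeq2 (-0.36, adjusted p = 0.0189), the replicate number as a block (0.0175) and voom with a weight per group (0.0312). Limma on log2(FPKM + 0.1) and log2(FPKM + 1) also called it (0.0215 and 0.0363). TIMP3 would then count as a reversal. FBN1 was also lower at day 7, a call lost without DMSO replicate 2 or either T3 library of that day (adjusted p = 0.0932 to 0.142). Of 20 stellate, smooth muscle and mesenchymal markers 7 had a lower and 4 a higher stage difference, beside 20.9% and 17.1% of all genes, and the part of mesenchymal cells in the collagen result was not tested.

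Interferon-induced and MHC class I genes rose at day 19. Of 21 measured, 18 rose and 2 fell there, 3 rose and 1 fell at day 7, and 11 had a higher and 1 a lower stage difference. IRF7, the interferon regulatory factor, had 1.89 at day 19 and 0.014 at day 7 (stage difference 1.88, SE 0.14, adjusted p = 1.41e-07), with 39.0 and 40.5 CPM with T3 at day 19 and 10.8 and 10.6 CPM with DMSO. HLA-B, a class I heavy chain, turned round, with 0.33 at day 19 and -0.30 at day 7 (stage difference 0.63, SE 0.10, adjusted p = 0.00022), but its day 7 call was lost without any 1 library of that day (adjusted p = 0.0841 to 0.092) and its day 19 effect was 0.20 without T3 replicate 2. HLA-E, a nonclassical class I chain, fell at day 19 (log2 fold change -0.41, SE 0.058). Of 18 cell cycle inhibitors and p53 targets 10 had a higher and 0 a lower stage difference. MDM2, the ligase that degrades p53, had 1.17 at day 19 and 0.21 at day 7 (stage difference 0.96, SE 0.11, adjusted p = 1.05e-05). CDKN1A, the inhibitor p21, rose by 1.23 at day 19 and 0.94 at day 7 (stage difference 0.29, SE 0.11, adjusted p = 0.0466). That stage difference lost its call without any 1 of the 4 DMSO and T3 libraries of day 7 or without replicate 1 of T3 or DMSO of day 19 (adjusted p = 0.0585 to 0.218).

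**Figure D4:**
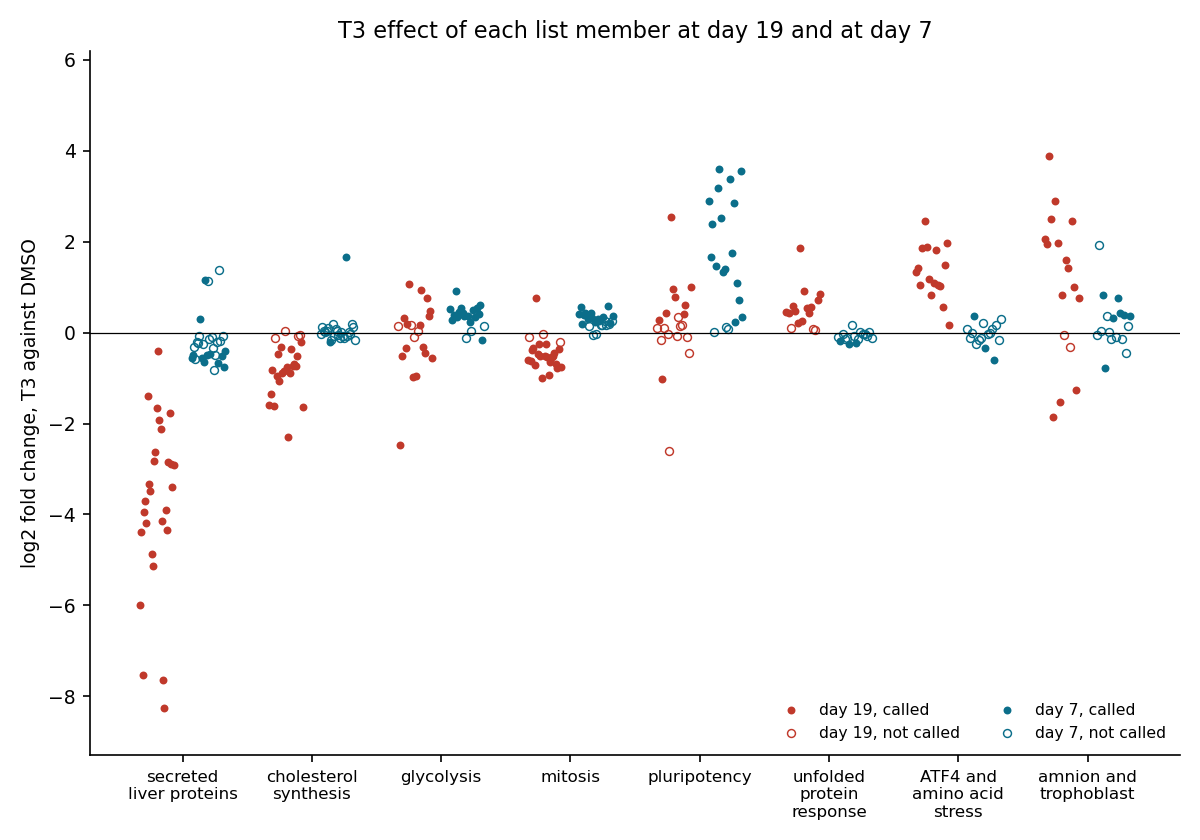
Log2 fold change of T3 over DMSO at day 19 and at day 7 for the members of 8 gene lists, each point being 1 gene, filled where called; 3 members with a group at 0 are left out. Mitosis genes lie mostly below 0 at day 19, CCNB1 apart, and mostly above it at day 7, with medians of -0.52 and 0.26, while ATF4 genes lie above 0 at day 19 and near it at day 7, with 1.26 and -0.027.

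Genes called at day 7 with a flat day 19 included some of pluripotent cells, 3 of the 20 measured, beside 1.59% of all genes. Of 20 measured pluripotency genes 8 rose and 1 fell at day 19, 17 rose and 0 fell at day 7, and 13 had a lower and 3 a higher stage difference. The median was 0.16 at day 19 and 1.56 at day 7. CRIPTO, the NODAL co-receptor with the older symbol TDGF1 (Entrez gene 6997, GRCh38 chromosome 3, 46574535 to 46582457), was first by the rule. CRIPTO had 36.1 and 42.9 CPM with T3 and 34.8 and 38.6 CPM with DMSO at day 19, and 108 and 104 CPM with T3 and 13.9 and 14.4 CPM with DMSO at day 7. At day 19 the groups overlapped, whereas the T3 libraries of day 7 were far above DMSO. For CRIPTO the log2 fold change was 0.11 (SE 0.093, adjusted p = 0.359) at day 19 and 2.90 (SE 0.096, adjusted p = 1.65e-10) at day 7, a stage difference of -2.79 (SE 0.13, adjusted p = 2.46e-09). POU5F1, the core factor OCT4, had under 6 CPM in every library of day 19, but 585 and 567 CPM with T3 and 168 and 176 CPM with DMSO at day 7. Its stage difference was -1.59 (SE 0.18, adjusted p = 7.74e-06), with a day 19 effect of 0.15 (95% interval -0.20 to 0.50). NANOG, another core factor, had 0.33 at day 19 and 3.39 at day 7 (stage difference -3.05, SE 0.35, adjusted p = 9.1e-06). SOX2, the third core factor, rose at day 7 by 1.08 (SE 0.068), but its stage difference of -0.47 (SE 0.25) was not called (adjusted p = 0.175). At day 19 it was at most 2.62 CPM, its effect of 0.61 lost its call without either DMSO library or T3 replicate 2 (adjusted p = 0.0769 to 0.515), and the stage difference was called without T3 replicate 2 (-0.80).

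DPPA4, a chromatin protein of pluripotent cells, had 32.0 and 30.1 CPM with T3 and 28.2 and 29.3 CPM with DMSO at day 19 and 265 and 278 CPM with T3 and 99.8 and 98.2 CPM with DMSO at day 7, so T3 was close to DMSO at day 19 and high at day 7. Its stage difference was -1.35 (SE 0.085, adjusted p = 2.78e-08). DNMT3B, the de novo DNA methyltransferase, and ESRG, a noncoding RNA of stem cells, rose at both days but further at day 7, with 0.27 at day 19 and 1.67 at day 7 (stage difference -1.40, SE 0.10, adjusted p = 1.44e-07) and 0.43 at day 19 and 3.17 at day 7 (stage difference -2.74, SE 0.15, adjusted p = 8.22e-09). Their day 19 calls were lost without T3 replicate 1 or DMSO replicate 2 (adjusted p = 0.0897 to 0.168 and 0.0653 to 0.116), and that of ESRG was 0.68 without DMSO replicate 1. LIN28A, KLF4 and ZFP42 were the members with a higher stage difference. KLF4 rose by 2.55 at day 19 and 1.34 at day 7 (stage difference 1.204, SE 0.20, adjusted p = 0.000233), ZFP42 by 0.997 at day 19 and 0.35 at day 7 (stage difference 0.65, SE 0.089, adjusted p = 4.53e-05), and LIN28A had 0.77 at day 19 and 0.12 at day 7 (stage difference 0.65, SE 0.083, adjusted p = 2.22e-05).

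The rule added ETV4 and SPRY4, a factor and a feedback inhibitor of FGF signals. ETV4 had 13.5 and 11.3 CPM with T3 and 10.8 and 12.8 CPM with DMSO at day 19 and 15.0 and 17.2 CPM with T3 and 3.32 and 3.75 CPM with DMSO at day 7. SPRY4 had 13.8 and 14.0 CPM with T3 and 12.4 and 12.6 CPM with DMSO at day 19 and 8.53 and 8.81 CPM with T3 and 2.60 and 2.50 CPM with DMSO at day 7. At day 19 the T3 libraries of ETV4 overlapped DMSO and those of SPRY4 lay just above, while at day 7 those of both were well above. The stage differences were -2.11 (SE 0.20) and -1.61 (SE 0.17), and unlike FGF2, SPRY2 and ETV5 neither was called at day 19. The genes named for a fall at day 7 with a flat day 19 were SHISA2, an inhibitor of WNT and FGF receptor maturation (-0.15 at day 19, -1.67 at day 7, stage difference 1.52, SE 0.19, adjusted p = 1.7e-05), JCAD, a junctional protein of endothelium (-0.0047 at day 19, -0.87 at day 7, stage difference 0.86, SE 0.16, adjusted p = 0.000745), EPHA4, an ephrin receptor (0.18 at day 19, -0.86 at day 7, stage difference 1.04, SE 0.16, adjusted p = 0.000139), and SEMA3C, a secreted guidance protein (-0.16 at day 19, -0.86 at day 7, stage difference 0.70, SE 0.13, adjusted p = 0.00056). The day 19 fall of SEMA3C was called without DMSO replicate 2 of that day (-0.27).

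A smaller set answered alike at both stages. NMRK2, a nicotinamide riboside kinase, had the highest mean response of the 4 upward genes the rule named. NMRK2 had 11.7 and 12.0 CPM with T3 and 3.57 and 4.37 CPM with DMSO at day 19, and 12.987 and 12.3 CPM with T3 and 4.14 and 4.23 CPM with DMSO at day 7. T3 libraries were above DMSO by about the same factor on both days, and the stage difference was -0.019 (SE 0.18) with a 95% interval of -0.41 to 0.38. IFITM1, an antiviral membrane protein, had 1.36 at day 19 and 1.30 at day 7 (stage difference 0.064, SE 0.15, adjusted p = 0.776), L1CAM, a neural adhesion molecule, had 1.26 at day 19 and 1.195 at day 7 (stage difference 0.061, SE 0.19, adjusted p = 0.84), and EPB41L4B, a cytoskeletal adaptor, had 1.29 at day 19 and 1.07 at day 7 (stage difference 0.22, SE 0.10, adjusted p = 0.101). Without T3 replicate 2 of day 19 the stage difference of EPB41L4B was called (0.29, adjusted p = 0.0306). Among the downward genes, PRDM1, a transcriptional repressor of endoderm and immune cells, had -0.95 at day 19 and -0.85 at day 7 (stage difference -0.099, SE 0.16, adjusted p = 0.676), and B3GALNT1, a glycosyltransferase, had -0.92 at day 19 and -0.96 at day 7 (stage difference 0.037, SE 0.20, adjusted p = 0.913). DACT1, a modulator of WNT signals, had -1.09 at day 19 and -0.83 at day 7 (stage difference -0.26, SE 0.089, adjusted p = 0.0337). Its stage difference was small although called, and the call was lost without any 1 of the 4 DMSO and T3 libraries of day 7 or without replicate 1 of T3 or DMSO of day 19 (adjusted p = 0.0672 to 0.11).

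Some imprinted growth and endoderm genes were also alike at both days, a class of 2.92% of all genes tested. Of 20 genes of the IGF pathway 6 were alike, and 2 had a higher and 2 a lower stage difference, which 38.0% of all genes had in either direction. IGF2, the fetal insulin-like growth factor, rose further at day 7, with 0.25 at day 19 and 0.77 at day 7 (stage difference -0.52, SE 0.098, adjusted p = 0.000745), and its day 19 call was lost without T3 replicate 2 or DMSO replicate 1 (adjusted p = 0.0505 to 0.0635). Of 15 definitive endoderm genes 4 were alike, 11 fell and 0 rose at day 19, and 9 fell and 1 rose at day 7. Of 20 hepatic transcription factors 4 were alike, 2 had a higher and 6 a lower stage difference. HNF4A, the central factor of hepatocyte identity, had 53.9 and 66.2 CPM with T3 and 241 and 225 CPM with DMSO at day 19 and 246 and 229 CPM with T3 and 341 and 342 CPM with DMSO at day 7. T3 libraries were below DMSO on both days and further below at day 19, and the log2 fold change was -1.95 (SE 0.091, adjusted p = 2.47e-10) at day 19 and -0.52 (SE 0.083, adjusted p = 0.000691) at day 7, a stage difference of -1.43 (SE 0.12, adjusted p = 5.21e-07). FOXA3, a forkhead factor of liver, had -1.62 at day 19 and 0.21 at day 7 (stage difference -1.84, SE 0.12, adjusted p = 3.55e-08), and PPARA, the receptor that drives fatty acid oxidation, had -1.75 at day 19 and -0.26 at day 7 (stage difference -1.49, SE 0.14, adjusted p = 1.22e-06). With voom and a weight per group the day 7 rise of FOXA3 (adjusted p = 0.0311) and fall of PPARA (0.042) were called.

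The rule named 6 genes whose responses had the same sign and differed in size. SOX3, a neural progenitor factor, rose at both days. SOX3 had 6.89 and 7.45 CPM with T3 and 0.303 and 0.243 CPM with DMSO at day 19, and 22.8 and 22.8 CPM with T3 and 5.59 and 5.34 CPM with DMSO at day 7. Its T3 libraries lay above DMSO on both days, with DMSO near 0 at day 19, and the stage difference was 2.62 (SE 0.31, adjusted p = 1.08e-05). SLC52A3, a riboflavin transporter, had 3.27 at day 19 and 0.77 at day 7 (stage difference 2.50, SE 0.28, adjusted p = 6.45e-06), with the day 7 call lost without T3 replicate 1 or either DMSO library (adjusted p = 0.0607 to 0.176). KIF5A, a neuronal kinesin with at most 1.26 CPM at day 19, had 3.19 at day 19 and 0.67 at day 7 (stage difference 2.52, SE 0.71, adjusted p = 0.0113). Its day 7 call was lost without any 1 library of that day (adjusted p = 0.0794 to 0.276), its stage difference without replicate 1 of T3 or DMSO of day 19 (adjusted p = 0.0721 to 0.0976), and with limma on log2(FPKM + 1) the stage difference was -0.15. AFP, SLC22A6, an organic anion transporter of kidney, and DPYS, a pyrimidine-degrading enzyme, fell at both days and further at day 19. SLC22A6 had -7.77 at day 19 and -0.91 at day 7 (stage difference -6.86, SE 0.56, adjusted p = 3.17e-07) and DPYS had -5.62 at day 19 and -0.51 at day 7 (stage difference -5.11, SE 0.57, adjusted p = 6.36e-06). Each T3 library of day 19 held at most 0.12 CPM of them, and without T3 replicate 1 of day 19, which leaves a library at 0, the stage difference of DPYS was -8.42. The day 7 call of SLC22A6 was lost without any 1 library of that day (adjusted p = 0.0629 to 0.154) and that of DPYS without replicate 2 of T3 or DMSO (adjusted p = 0.0846 to 0.105).

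A list of genes through which cells take up, convert and read thyroid hormone was also examined. Of 23 measured, 12 had a lower and 5 a higher stage difference, 13 fell and 7 rose at day 19, and 2 fell and 4 rose at day 7. Of all genes, 52.3% were called at day 19 and 16.0% at day 7. Of the transporters, SLC16A10, the aromatic amino acid carrier MCT10 that also moves iodothyronines, had -1.99 at day 19 and 0.06 at day 7 (stage difference -2.05, SE 0.24, adjusted p = 8.55e-06). SLC7A8, another amino acid carrier that moves them, had 2.34 at day 19 and 0.57 at day 7 (stage difference 1.78, SE 0.13, adjusted p = 8.2e-08).

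Of the deiodinases, DIO3, which inactivates T4 and T3 (Entrez gene 1735, GRCh38 chromosome 14, 101561495 to 101563452), rose at both days and further at day 19. DIO3 had 984 and 789 CPM with T3 and 190.2 and 159.5 CPM with DMSO at day 19, and 32.5 and 30.1 CPM with T3 and 11.7 and 14.0 CPM with DMSO at day 7. T3 libraries were above DMSO on both days without overlap. The log2 fold change was 2.34 (SE 0.10, adjusted p = 1.28e-10) at day 19 and 1.28 (SE 0.14, adjusted p = 2.05e-05) at day 7, a stage difference of 1.06 (SE 0.17, adjusted p = 0.000189). DIO1, which can make or clear T3 and is a known target of the hormone in liver, had 24.1 and 36.8 CPM with T3 and 71.8 and 76.9 CPM with DMSO at day 19 and 3.72 and 3.18 CPM with T3 and 4.19 and 4.04 CPM with DMSO at day 7. Both T3 libraries were below DMSO at day 19. Its stage difference of -1.03 (SE 0.29, adjusted p = 0.0105) lost its call without T3 replicate 1 of day 7 (adjusted p = 0.0732). DIO2, which makes T3 from T4, fell at both days, with -1.67 at day 19 and -0.42 at day 7 (stage difference -1.24, SE 0.27, adjusted p = 0.00213). Its day 7 call was lost without either T3 library or DMSO replicate 1 (adjusted p = 0.0631 to 0.102), and at fewer than 3 CPM in every library of day 19 its stage difference was 0.11 with limma on log2(FPKM + 1).

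The receptor genes differed between stages too. THRB, the main receptor of liver (Entrez gene 7068, GRCh38 chromosome 3, 24117153 to 24495708), turned round. THRB had 66.9 and 65.6 CPM with T3 and 95.6 and 79.2 CPM with DMSO at day 19, and 10.8 and 10.7 CPM with T3 and 7.37 and 7.79 CPM with DMSO at day 7. T3 libraries were below DMSO at day 19 and above it at day 7 without overlap, and the log2 fold change was -0.40 (SE 0.076, adjusted p = 0.000428) at day 19 and 0.50 (SE 0.12, adjusted p = 0.0105) at day 7, a stage difference of -0.90 (SE 0.14, adjusted p = 0.000146). The day 7 call was lost without either T3 library or DMSO replicate 1 (adjusted p = 0.054 to 0.0867), and without DMSO replicate 1 of day 19 the day 19 effect was -0.26. THRA, the other receptor, had -0.85 at day 19 and 0.071 at day 7 (stage difference -0.92, SE 0.16, adjusted p = 0.000325). NCOA3, a coactivator of nuclear receptors, rose at day 19 by 1.88 (SE 0.12) and had 0.051 (SE 0.13) at day 7. Both receptor genes overlap another gene, so reads of the 2 strands cannot be told apart there.

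Of 18 measured genes known to respond to thyroid hormone, 6 had a higher and 6 a lower stage difference, beside 17.1% and 20.9% of all genes, 9 rose and 5 fell at day 19, and 5 rose and 1 fell at day 7. KLF9, a direct receptor target in many tissues, had 61.2 and 68.5 CPM with T3 and 38.2 and 37.5 CPM with DMSO at day 19 and 7.498 and 8.56 CPM with T3 and 6.31 and 6.397 CPM with DMSO at day 7. T3 libraries were above DMSO on both days, with 0.78 (SE 0.09) at day 19 (adjusted p = 4.17e-06) and 0.34 (SE 0.14) at day 7 (adjusted p = 0.125). Its stage difference of 0.44 (SE 0.17) was not called (adjusted p = 0.0532), and was called with DESeq2-type size factors (adjusted p = 0.0324), with the 8 DMSO and T3 libraries alone (0.0282) and without T3 replicate 1 of day 19 (0.0298). HR, a corepressor and direct target in brain, had -0.37 (SE 0.15) at day 19 and rose by 1.36 (SE 0.32) at day 7, a stage difference of -1.73 (SE 0.35, adjusted p = 0.00126). Its day 7 libraries held under 2 CPM, and that call was lost without replicate 2 of T3 or DMSO (adjusted p = 0.0978 to 0.114). THRSP, the classic target of hepatic lipogenesis, had at most 6 counts in a library and was not tested.

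The stage dependence of T4 was set directly against that of T3, in a contrast in which the DMSO libraries cancel. It was called for 835 genes (4.61%), of which 515 (2.85%) were higher and 320 (1.77%) lower for T4. This count was 1735 without T3 replicate 2 of day 19, 538 without T3 replicate 1, 465 and 566 without a T4 library of day 19, and 264 to 342 without a hormone library of day 7. The genes and lists that follow were chosen by their T3 values, which enter this contrast with a minus sign. A sign opposite to that of the T3 stage difference is therefore favoured by the choice, and their values are a description. Of the secreted liver proteins 16 of 29 were higher and 0 lower, and of the mitosis genes 15 of 25 were higher and 0 lower. SFRP2 had 43.9 and 42.1 CPM with T4 and 15.0 and 15.2 CPM with T3 at day 19, and 40.4 and 38.5 CPM with T4 and 65.8 and 64.2 CPM with T3 at day 7. T4 libraries lay above T3 libraries at day 19 and below them at day 7, a difference of 2.23 (SE 0.1). APOA1 had 2609 and 2775 CPM with T4 and 760.2 and 975 CPM with T3 at day 19, and 1780.4 and 1709 CPM with T4 and 1775 and 1646 CPM with T3 at day 7. The T4 libraries were higher at day 19, a difference of 1.60 (SE 0.13). PLK1 had a difference of 0.66 (SE 0.10) and HSPA5 one of -0.47 (SE 0.087). For COL2A1, CDH5 and MYCN the differences were -0.63 (SE 0.14), -0.99 (SE 0.21) and -0.81 (SE 0.11).

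The other lists are given by their counts, beside 17.1% of all genes higher and 20.9% lower. Of 21 genes of fatty acid and triglyceride synthesis 1 had a higher and 12 a lower stage difference, and SCD, the stearoyl desaturase, had -0.62 at day 19 and 0.23 at day 7 (stage difference -0.85, SE 0.088, adjusted p = 3.21e-06), with its day 7 call lost without any 1 library of that day (adjusted p = 0.0712 to 0.158). Higher and lower counts were 5 and 7 of 19 for the BMP pathway, 5 and 7 of 22 for the WNT pathway, 2 and 8 of 16 for the retinoic acid pathway, and 5 and 8 of 19 for hepatoblast genes. For markers of other lineages they were 1 and 4 of 12 for primitive streak, 6 and 2 of 12 for cholangiocytes, 3 and 1 of 11 for neuroectoderm and neurons, 0 and 4 of 14 for intestinal epithelium, and 0 and 1 of 5 for blood. Of the 14 intestinal genes 10 fell and 2 rose at day 19, but 9 had a mean below 1 CPM in both groups of day 7.

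Of the 59 genes tested that the rule picked outside the lists, 33 overlap another gene in the RefSeq annotation, among them CDH5, COL2A1, SMOC1, MYCN, SLC22A7, APOA1, THRA and THRB. The strand of counting is not given in the sources used here, so reads of such neighbours cannot be fully separated.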

How the data were processed

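RNA from 12 libraries of H9-derived cells had been sequenced on an Illumina instrument. The authors deposited, for each library, expected counts and FPKM per transcript, and the submitters' processing notes name hg38, HISAT, Bowtie2 and RSEM without versions or parameters. Transcripts below an FPKM of 0.01 are not listed in the deposited files. Of 23922 gene identifiers 23801 matched a RefSeq gene, and the other 121 held 0.103% to 0.145% of the counts. Expected counts deposited by the authors were summed per gene and rounded to whole numbers, and FPKM values deposited by the authors were summed likewise and used only in alternatives, as log2(FPKM + 0.1) and log2(FPKM + 1).

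All 12 libraries in 6 groups entered 1 fit with edgeR 4.0.16 in R 4.3.3: TMM scaling, filterByExpr, which kept 18101 genes, and the quasi-likelihood test with Benjamini-Hochberg adjustment over those genes. Contrasts were T3 minus DMSO on each day, their difference, and the same difference for T4 minus that for T3. Standard errors are the log2 fold change over the square root of F, and intervals cover 95%. CPM are counts per 1e+06 of the TMM-scaled library size, and floors of 3 counts cover counting error only.

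Genes named had a mean of at least 5 CPM in 1 of the 4 DMSO and T3 groups, with T3 and DMSO libraries that did not overlap on each day where they were called. They were the 8 genes of each reversal class with the largest change on the weaker day, the 6 steepest each way for a day 19 response with a flat day 7, 4 each way for a day 7 response with a flat day 19 and for the shared response, and 3 each way for responses of like sign that differed in size. Members with the smallest p, or a defining role, in 36 gene lists of 640 symbols, of which 606 were tested, were added, with KLF9, THRSP, HR, DIO1, DIO3, THRA, THRB, POU5F1, AFP, ALB and HNF4A. The members and lists were chosen with earlier results of these data known. Alternatives were other scalings, no filter, DESeq2 1.42.0, limma 3.58.1 on log2 FPKM or with voom and a weight per group, the 8 DMSO and T3 libraries alone, the replicate number as a block and each library left out. Tables and figures were made with Python 3.11.15, pandas 2.3.3, numpy 2.4.6 and matplotlib 3.10.9. Some genes that the rule picked are not reported here. F9, HBG1, PEG3 and SLCO1C1 were not analysed here.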

Additional observations from a re-analysis of the deposited data

Results flagged for a closer look

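The effect of T3 itself differed between the 2 days, by a test of that difference, for 6874 genes, and 323 and 202 of the genes called on both days had opposite signs. The stage difference of T4 differed from that of T3, in a contrast free of the DMSO libraries, for 835 genes. Each value that follows is the stage difference of T4 minus that of T3 on the log2 scale, for genes named by the rule and called in that contrast (edgeR, adjusted p at most 0.05), and the causes were not tested. These genes were chosen by T3 values that enter the contrast with a minus sign. A sign opposite to that of the T3 stage difference is therefore favoured by the choice, and the values are a description.

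The value was 2.23 for SFRP2 and 1.55 for BRINP1 among genes that turned round. It was 2.82 for SLC22A7, 1.36 for DGAT2, 1.32 for FMO1 and 1.60 for APOA1 among genes flat at day 7. It was 3.49 for SLC22A6, 3.79 for DPYS, 2.12 for AFP and 1.81 for ALB among further liver and transport genes. CRIPTO at 1.01, DPPA4 at 0.74 and DACT1 at 0.38 were the others above 0.

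The value was -0.99 for CDH5, -0.63 for COL2A1, -0.76 for GATA3-AS1, -0.93 for COL22A1, -0.81 for MYCN, -0.90 for IFRD1 and -0.94 for SLC52A3. The 835 calls became 1735 without T3 replicate 2 of day 19 and 264 without T4 replicate 2 of day 7.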

How the results depend on the processing

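With 2 libraries a group, counts of calls near the threshold depended on single libraries and on the test. With 1 library left out, the stage difference was called for 5721 to 6923 genes, 2524 to 3114 of them higher and 3197 to 3809 lower. The T3 effect was called for 8246 to 9258 genes at day 19 and 1325 to 3452 at day 7. Reversals numbered 152 to 367 for genes higher at day 7 and 78 to 239 for genes lower at day 7, like responses 169 to 542, day 19 responses with a flat day 7 3044 to 3571, day 7 responses with a flat day 19 151 to 316, and differences between T4 and T3 264 to 1735. DESeq2 gave 181 reversals of genes higher at day 7, 309 like responses and 183 day 7 responses with a flat day 19. A weight per group gave 4914 calls at day 7, 452 reversals of genes higher at day 7 and 314 of genes lower at day 7. Limma on log2(FPKM + 0.1) gave 190 reversals of genes higher at day 7, and on log2(FPKM + 1), which shrinks low genes, 200 of these and 588 day 7 responses with a flat day 19. There the stage difference changed sign for KIF5A (-0.15), TEK (0.0046) and DIO2 (0.11). The causes were not tested. Median stage differences over all genes were -0.039 with TMM, 0.009 with DESeq2-type size factors and 0.0728 on log2(FPKM + 0.1). The replicate block gave 6825 stage calls, 321 and 189 reversals and 512 like responses. The block lost the stage calls of DACT1 (adjusted p = 0.0565) and CDKN1A (0.056), the day 7 call of CGB8 (0.0697) and the day 19 call of SOX2 (0.0586). It gained the stage call of KLF9 (0.0406) and the day 19 call of HR (0.0442), which would make HR a reversal. The block also gained the day 7 call of TIMP3 (0.0175), which would make TIMP3 a reversal. Same-numbered libraries correlated in their deviations at 0.357 between T3 and DMSO of day 19 and at -0.0188 between those of day 7, and 3 of 6 pairs of groups exceeded 0.1. As the labels name no shared source, the numbers were not taken to pair the libraries, though a pairing within day 19 stays possible. The block was 1 term over all 12 libraries, so it could not test a pairing within 1 day. DESeq2 did not make the day 19 calls of BUB1B (0.0794), CDC20 (0.141), ETV5 (0.157) and FOXM1 (0.102), the day 7 calls of LURAP1L (0.0648), SPRY2 (0.107), SLC22A6 (0.0641) and KIF5A (0.174), or the stage calls of DACT1 (0.291) and NODAL (0.0958). The T4 contrast was not run on the 8 DMSO and T3 libraries alone, which hold no T4.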
